A study of Homo sapiens with 10 samples.

Results

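HDAC9 encodes a class IIa histone deacetylase, and its expression in irradiated proximal tubular cells is described here beside that of the 7 other class I and class IIa deacetylase genes. The 8 genes are HDAC1, HDAC2, HDAC3 and HDAC8 of class I and HDAC4, HDAC5, HDAC7 and HDAC9 of class IIa. They were found by gene symbol among the 61587 genes of the count table, and each symbol matched a single row. RPTEC/TERT1 cells are human renal proximal tubular epithelial cells immortalised with telomerase, an established line. Bulk RNA-seq was performed on 5 samples given 10 Gy of gamma irradiation and on 5 controls that were taken to the irradiator and not exposed, with RNA collected at day 7. Control and irradiated samples carry the replicate numbers 1 to 5, and the number ties each irradiated sample to its control. All samples come from a single cell line, and the labels do not say that samples of a group were separate cultures, so that p-values measure only the spread between these samples, which may be technical. The labels list the line under names that rise by 1 with each sample, from RPTEC/TERT1 onwards, whereas the series design names RPTEC/TERT1 alone.

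Histone deacetylases remove acetyl groups from lysines of histone tails and other proteins. Class I enzymes are mainly nuclear and act inside large co-repressor assemblies. Class IIa proteins have weak catalytic activity of their own. They bind transcription factors of the MEF2 family, recruit HDAC3 through co-repressors such as NCOR1, and move out of the nucleus when kinases phosphorylate them and 14-3-3 proteins bind. HDAC9 transcripts encode a full-length protein and shorter forms that lack the catalytic domain, and a gene count sums all of them. Irradiation was used in the study to bring the cells into senescence, and the question here is how HDAC9 and its relatives differ between irradiated and control cells.

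HDAC9 (ENSG00000048052.24) spans 915.5 kb on the plus strand of chromosome 7 (hg38, 18086949 to 19002416), with 36 annotated transcripts, 23 of them coding, that begin at 31 different positions. None of its exon bases lie under exons of another gene. RefSeq promoter windows of GRCh38.p14, from 250 bases before to 50 bases after a transcript start, were held for 7 of the 8 genes, with 15 windows in all and 5 for HDAC9. HDAC5 was the gene without one. The windows were searched on both strands for the MEF2 motif, for the NF-κB motif and for the AP-1 motif, spelt TGAGTCA or TGACTCA, since MEF2 factors are the partners of class IIa proteins and AP-1 and NF-κB are factor families that the study considered in injured tubular cells. The first window shown is that of the most upstream HDAC9 start, with the MEF2 motif in capitals, and the second is that of the most downstream of the 5 starts, with the NF-κB motif in capitals.
HDAC9 upstream start, chr7:18086575-18086874, plus strand: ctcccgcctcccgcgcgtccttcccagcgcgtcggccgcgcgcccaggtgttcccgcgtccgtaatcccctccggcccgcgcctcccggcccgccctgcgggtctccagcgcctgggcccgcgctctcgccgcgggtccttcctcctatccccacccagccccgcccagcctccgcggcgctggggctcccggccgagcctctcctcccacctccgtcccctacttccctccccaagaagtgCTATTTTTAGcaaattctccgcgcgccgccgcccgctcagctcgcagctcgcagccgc
HDAC9 downstream start, chr7:18509020-18509319, plus strand: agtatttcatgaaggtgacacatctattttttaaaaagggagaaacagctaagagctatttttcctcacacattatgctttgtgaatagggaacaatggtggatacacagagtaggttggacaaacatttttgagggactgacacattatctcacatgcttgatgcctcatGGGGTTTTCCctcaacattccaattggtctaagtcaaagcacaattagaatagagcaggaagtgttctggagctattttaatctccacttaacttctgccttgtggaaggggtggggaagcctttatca
The MEF2 motif begins 8 bases before the upstream RefSeq start and was found in 1 of the 15 windows, against 2.99% of 35116 windows of all genes. This window ends at 18086874, before the gene start at 18086949 given above, so the annotations differ in where the gene begins. The NF-κB motif begins 79 bases before the downstream start. It was found in 2 of the 15 windows, the other being that of HDAC8, against 5.91% of all windows. The AP-1 motif was found in 0 of the 15 windows, against 4.95% of all windows. The study reports that JUN, of the AP-1 family, bound some regulatory elements near the HDAC9 locus in TNF-treated tubular cells. A search of promoter windows does not cover elements elsewhere in the locus. A match of letters does not show that a factor binds there, and gene counts do not show which start was used.

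Total counts on genes lay between 66269311 and 131555873 per sample. Expression is in CPM, which scales the reads of a gene to the TMM-adjusted library total of its sample. Comparisons between groups were made with edgeR's quasi-likelihood test on the 19006 genes that reached 200 counts in all, with replicate number as a block and Benjamini-Hochberg adjustment over all of these genes. A gene was called higher or lower at an adjusted p-value under 0.05. Epithelial markers such as EPCAM and KRT8 were detected throughout, with a summed level of 2077 to 2477 CPM in control and 2110 to 2757 CPM in irradiated samples over 5 genes. Of these 5 genes CDH1 fell by 0.18 on the log2 scale (adjusted p = 0.0346 in edgeR), a call lost without the replicate block (0.233) and without replicate 1 (0.0854), 2 (0.103), 3 (0.0776) or 5 (0.124). KRT18, PAX8, EPCAM and KRT8 went the other way, with log2 fold changes of 0.30, 0.17, 0.15 and 0.10. They did not pass the threshold (adjusted p = 0.0524, 0.0719, 0.0886 and 0.37 in edgeR). The list median was 0.15, and leaving out a replicate gave 0 to 2 epithelial genes called higher. Of 7 proximal tubule markers 4 reached 200 counts, and the summed level of the 7 was 208.2 to 384.2 CPM in control and 234.4 to 481.4 CPM in irradiated samples. Most of it was ANPEP, a brush border peptidase, at 247.8 ± 76.1 and 295.8 ± 96.2 CPM (SD, n = 5 each). AQP1, near 1 to 2 CPM and with 27.9% of its exon bases shared, fell by 0.61 on the log2 scale (adjusted p = 0.00635 in edgeR). GGT1, ANPEP and CUBN went the other way, with log2 fold changes of 0.33, 0.25 and 0.14, and did not pass the threshold (adjusted p = 0.0549, 0.373 and 0.24 in edgeR). The median over the tested markers was 0.19. The transcription factor HNF4A with 12 counts, the endocytic receptor LRP2 with 17 and the phosphate transporter SLC34A1 with 86 over all samples were near 0. Control replicates 1 and 3 stood apart from the other controls for 20 proliferation genes, with summed levels of 573.5 and 547.7 CPM against 1294 to 1346 in control replicates 2, 4 and 5. Irradiated samples lay between 382.2 and 474.6 CPM. Of the 20 genes 17 fell and 0 rose, where 22.7% of all genes tested were called lower. Log2 fold changes were -2.57 for MKI67, -2.13 for AURKB, -2.10 for CDK1 and -2.06 for BUB1.

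Among the class I and class IIa deacetylases, HDAC9 was the gene that rose. It was the only one of the 8 genes called higher, where 23.9% of all genes tested were called higher. HDAC1, HDAC3, HDAC4 and HDAC5 fell, where 22.7% of all genes tested were called lower. HDAC2, HDAC7 and HDAC8 did not pass the threshold. In either direction 5 of the 8 genes were called, against 46.6% of all genes tested. The median log2 fold change of the 8 genes was -0.15, beside -0.0098 over all genes tested. With library size as the only scaling, which moves the median of all genes to -0.086, 6 members were called lower and HDAC9 was again called higher. The same scaling gave 3609 genes higher and 5894 lower over the whole table, against 4550 and 4307 with TMM. Expression of the irradiated samples did not overlap that of the controls for HDAC9, HDAC1 and HDAC5, which is 3 of the 8 genes against 26.7% of all genes tested.

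HDAC9 stood at 1.20, 1.47, 2.10, 1.77 and 1.504 CPM in control replicates 1 to 5 and at 14.5, 13.3, 18.8, 20.6 and 21.6 CPM in irradiated replicates 1 to 5. All 5 irradiated samples lay far above all 5 controls, and the lowest irradiated sample, replicate 2, was several times the highest control, replicate 3. These levels rest on 98 to 211 reads in a control library and on 888 to 1906 in an irradiated one. The mean rose from 1.61 ± 0.34 to 17.7 ± 3.7 CPM (SD, n = 5 each). This is a 10.96-fold increase with a 95% interval of 9.03 to 13.3, or 3.45 on the log2 scale with a standard error of 0.12 (adjusted p = 8.62e-06 in edgeR). Within pairs the fold increase ran from 8.92 in replicate 3 to 14.3 in replicate 5. Counted from the largest rise in log2 fold change, HDAC9 stood at place 61 among the 19006 genes tested. It was called higher in all 12 alternative fits, where the log2 fold change ran from 3.36 to 3.54, and it was 3.50 with pairs 2, 4 and 5 alone.

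**Figure D1:**
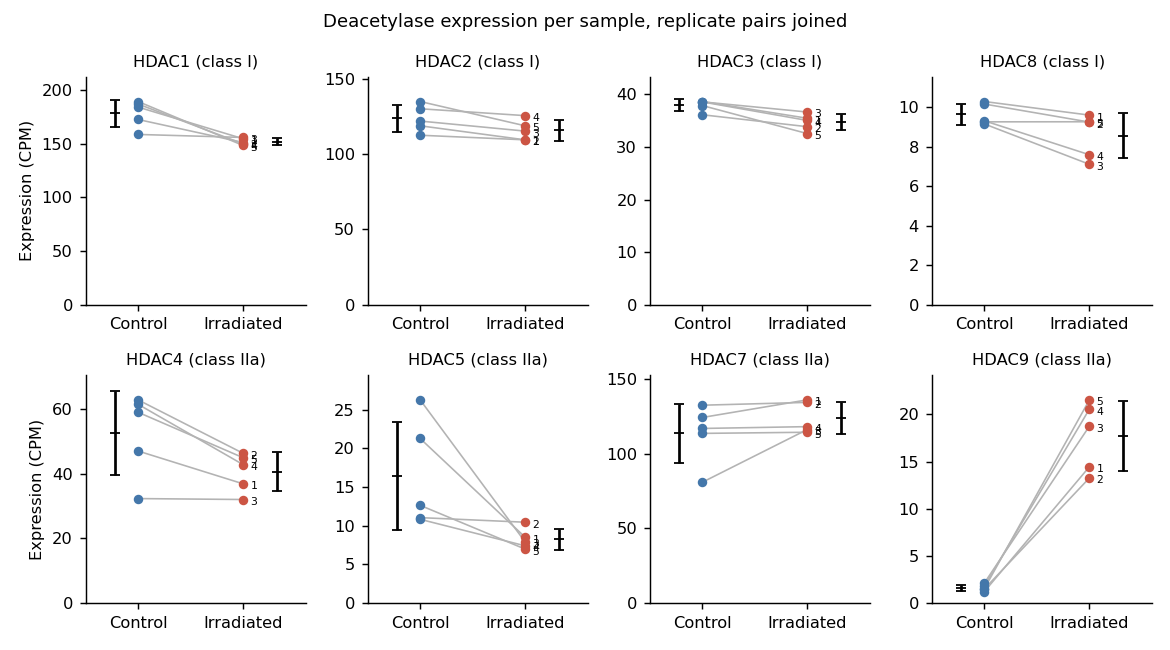
Expression in CPM (vertical axis, from 0) of each deacetylase gene in control (blue) and irradiated (red) samples. Grey lines join the samples of a replicate number, printed at the right, and black bars give the mean and SD of 5 samples. HDAC9 rises in all 5 pairs, from 1.20 to 2.10 CPM in controls to 13.3 to 21.6 CPM in irradiated samples, while HDAC1 and HDAC5 lie lower in every irradiated sample than in any control.

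Among the other class IIa genes, HDAC5 showed the largest fall. HDAC5 (ENSG00000108840.16, chr17:44076746-44123702, minus strand), a repressor of MEF2 targets best known from muscle, stood at 21.3, 11.0, 26.3, 10.8 and 12.6 CPM in control replicates 1 to 5 and at 8.49, 10.4, 7.87, 7.38 and 6.95 CPM in irradiated replicates 1 to 5. Control replicates 1 and 3 were well above the other controls, the irradiated samples lay close together, and the groups did not overlap. In edgeR its log2 fold change was -0.91 with a standard error of 0.22 (adjusted p = 0.0113). The 2 controls with high HDAC5 are those with low levels of the proliferation genes. With pairs 2, 4 and 5 alone the log2 fold change of HDAC5 was -0.51 (adjusted p = 0.0231 in edgeR), and in pair 2 the difference was -0.080. The part of culture growth in the fall of HDAC5 was not tested. Of its exon length, 24.0% lies under exons of G6PC3 on the opposite strand, where reads may be left out of the count.

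HDAC4 (ENSG00000068024.18, chr2:239048168-239401654, minus strand), which represses MEF2-dependent genes and shuttles in the same way, fell, with a lower level after irradiation in each of the 5 pairs. It stood at 47.1, 62.9, 32.3, 61.5 and 59.1 CPM in control replicates 1 to 5 and at 36.9, 46.3, 32.03, 42.8 and 45.0 CPM in irradiated replicates 1 to 5. Control replicates 1 and 3 were the lowest of the controls here, the reverse of HDAC5, and replicate 3 was the lowest of both groups. The groups overlapped. The edgeR log2 fold change was -0.35 with a standard error of 0.073 (adjusted p = 0.00635), and -0.47 (adjusted p = 0.00029 in edgeR) with pairs 2, 4 and 5 alone. The call rests on the pairing of the samples, since without the replicate block the adjusted p-value of HDAC4 was 0.108 in edgeR.

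HDAC7 (ENSG00000061273.18, chr12:47782722-47833132, minus strand), the class IIa member known from endothelium and developing lymphocytes, was not called. It stood at 124.2, 132.4, 80.8, 116.8 and 113.5 CPM in control replicates 1 to 5 and at 136.0, 134.3, 116.1, 118.03 and 114.3 CPM in irradiated replicates 1 to 5. Control replicate 3 was the one low sample, and all others lay within a narrow range. The irradiated sample was higher in each of the 5 pairs, by a fold of 1.01 in replicate 5 to 1.44 in replicate 3, and the groups overlapped. The log2 fold change was 0.14, with a 95% interval from -0.045 to 0.32 (adjusted p = 0.186 in edgeR). With pairs 2, 4 and 5 alone it was -0.0016. Of its exon length, 11.2% lies under opposite-strand exons.

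**Figure D2:**
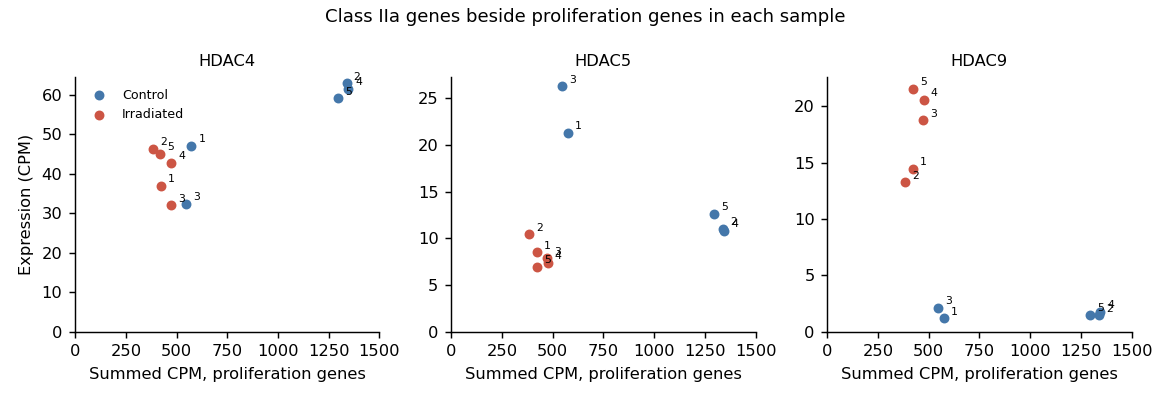
Expression in CPM (vertical axis) of HDAC4, HDAC5 and HDAC9 in each sample against the summed CPM of 20 proliferation genes in the same sample (horizontal axis), with control samples in blue, irradiated samples in red and replicate numbers beside the points. Control replicates 1 and 3, at 573.5 and 547.7 on the horizontal axis, are high for HDAC5 and low for HDAC4, while for HDAC9 they are the lowest and the highest control, at 1.20 and 2.10 CPM.

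Class I genes changed little in size. HDAC1 (ENSG00000116478.12, chr1:32292083-32333635, plus strand), a catalytic subunit of the SIN3, NuRD and CoREST assemblies, stood at 184.4, 172.8, 158.8, 187.2 and 189.6 CPM in control replicates 1 to 5 and at 154.8, 151.3, 156.02, 150.01 and 148.5 CPM in irradiated replicates 1 to 5. Every irradiated sample was below every control, with control replicate 3 the nearest. The edgeR log2 fold change was -0.23 with a standard error of 0.055 (adjusted p = 0.0115), and the call was lost without replicate 4 (0.0539) or 5 (0.0566).

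HDAC3 (ENSG00000171720.10, chr5:141620876-141636849, minus strand), the enzyme that the co-repressor NCOR1 activates, stood at 38.7, 36.1, 38.6, 38.6 and 37.9 CPM in control replicates 1 to 5 and at 35.5, 33.9, 36.7, 35.06 and 32.6 CPM in irradiated replicates 1 to 5. The irradiated sample was lower in all 5 pairs, but control replicate 2 lay inside the irradiated range. The edgeR log2 fold change was -0.13 with a standard error of 0.042 (adjusted p = 0.0352). This call was lost in 7 fits, among them DESeq2 (adjusted p = 0.0595) and edgeR without the replicate block (0.0615), and also without replicate 1 (0.0757), 2 (0.0598), 4 (0.116) or 5 (0.153). Of the HDAC3 exon length, 9.24% lies under exons of an opposite-strand gene.

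HDAC2 (ENSG00000196591.12, chr6:113933028-114011308, minus strand), the close paralogue of HDAC1, stood at 119.1, 112.8, 122.2, 130.4 and 135.2 CPM in control replicates 1 to 5 and at 109.7, 109.7, 115.5, 125.8 and 119.02 CPM in irradiated replicates 1 to 5. The irradiated sample was lower in each pair and the groups overlapped. Its log2 fold change was -0.095, with a 95% interval from -0.19 to -0.0022 before adjustment (adjusted p = 0.0864 in edgeR).

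HDAC8 (ENSG00000147099.21, chrX:72329516-72573101, minus strand), which acts outside the large co-repressor assemblies and deacetylates cohesin, stood at 10.3, 10.2, 9.15, 9.31 and 9.26 CPM in control replicates 1 to 5 and at 9.60, 9.24, 7.11, 7.59 and 9.26 CPM in irradiated replicates 1 to 5. Irradiated replicates 3 and 4 were low, and the other 3 reached the range of the controls. Its log2 fold change was -0.18, with a 95% interval from -0.35 to -0.0027 before adjustment (adjusted p = 0.0886 in edgeR). Both HDAC2 and HDAC8 were called lower with library size as the only scaling (adjusted p = 0.0077 and 0.0271 in edgeR) and with upper-quartile scaling (0.0287 and 0.0497).

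**Figure D3:**
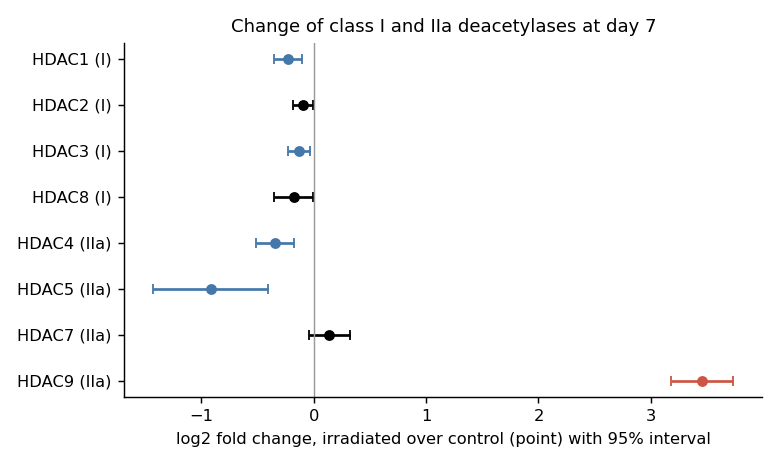
Log2 fold change of irradiated over control samples (horizontal axis) for each deacetylase gene, with 95% intervals from the edgeR fit before adjustment for the number of genes. Genes called higher are red, genes called lower blue and genes not past the threshold black. HDAC9 at 3.45 stands alone on the right, and the other 7 genes lie between -0.91 and 0.14.

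Whether HDAC9 changed differently from each of the other genes was tested on ratios of read counts within a sample, which do not depend on the scaling between samples. The log2 ratio of HDAC9 to HDAC5 rose from -3.27 ± 0.62 to 1.10 ± 0.53 (SD, n = 5 each), so that reads of HDAC9 outnumbered those of HDAC5 after irradiation. The ratio to HDAC8 went from -2.60 ± 0.37 to 1.03 ± 0.45 (SD, n = 5 each). Both ratios changed sign between the groups. The difference between irradiated and control samples in the log2 ratio was 4.37 for HDAC5, 3.80 for HDAC4, 3.69 for HDAC1, 3.64 for HDAC8, 3.59 for HDAC3, 3.55 for HDAC2 and 3.32 for HDAC7. For each of the 7 ratios the difference had the same sign in all 5 pairs and gave p = 0.00794 in a two-sided exact permutation test, before and after adjustment over the 7 ratios, which is the smallest value that 5 samples against 5 allow. This test leaves out the pairing. A sign-flip test over the 5 pairs gave an exact p of 0.0625 for each ratio, which misses the threshold and is the smallest that 5 pairs allow.

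Levels of different genes were compared as CPM per kb of annotated exons. In control cells HDAC1 was the highest, at 45.03 ± 3.2 CPM per kb (SD, n = 5), apart from all others. HDAC7 (11.4 ± 2.0), HDAC3 (8.24 ± 0.23) and HDAC2 (8.08 ± 0.58) followed with overlapping samples, then HDAC4 (3.71 ± 0.91) and HDAC5 (2.15 ± 0.92), which overlapped each other. HDAC8 (0.42 ± 0.024) and HDAC9 (0.093 ± 0.020) were the lowest, and samples of HDAC9 lay below all samples of HDAC8. After irradiation HDAC9 stood at 1.03 ± 0.21 CPM per kb (SD, n = 5), above all samples of HDAC8 (0.37 ± 0.049) and within the range of HDAC5 (1.08 ± 0.18). HDAC9 thus moved from place 8 to place 7 in this order. With the longest transcript as the length it moved from place 8 to place 6, just above HDAC5, with which it overlapped.

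**Figure D4:**
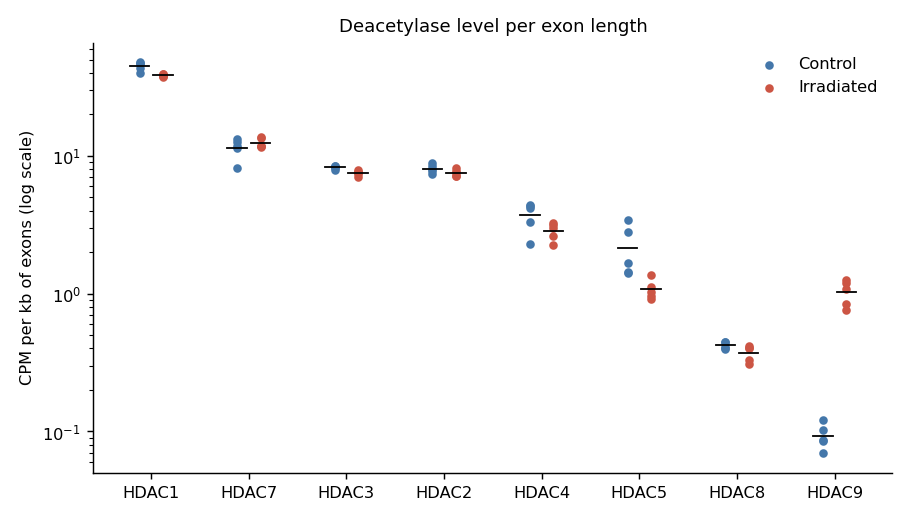
Level of each deacetylase gene in CPM per kb of exons (vertical axis, log scale) in control (blue) and irradiated (red) samples, ordered by the control mean. Points are samples and black bars are means of 5. HDAC9 is the lowest gene in controls at 0.093 CPM per kb and reaches the level of HDAC5, near 1.03, after irradiation.

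Of the summed level of HDAC4, HDAC5, HDAC7 and HDAC9, HDAC9 made up 0.37%, 0.44%, 0.87%, 0.58% and 0.50% in control replicates 1 to 5. In irradiated replicates 1 to 5 it made up 4.58%, 4.05%, 6.75%, 6.97% and 7.40%. Its share was thus higher in every irradiated sample and remained a small part of class IIa expression, most of which was HDAC7. The mean share went from 0.55 ± 0.19% to 5.95 ± 1.5% (SD, n = 5 each), with p = 0.00794 in a two-sided exact permutation test that leaves out the pairing and 0.0625 in the exact sign-flip test over pairs, each the smallest value possible. The summed level itself was 17.39 ± 2.1 CPM per kb in controls and 17.43 ± 1.1 after irradiation (SD, n = 5 each).

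Of the 3 other zinc-dependent deacetylases, 1 fell and 0 rose, against 46.6% of all genes tested called in either direction. HDAC11, the class IV member, fell from 42.5 ± 5.8 to 35.9 ± 2.7 CPM (SD, n = 5 each, adjusted p = 0.0105 in edgeR, and 0.0557 without the replicate block). HDAC6, the cytoplasmic tubulin deacetylase, had a log2 fold change of -0.12 (adjusted p = 0.132 in edgeR). HDAC10, a polyamine deacetylase, had one of 0.25 (adjusted p = 0.11 in edgeR), and other genes on its strand cover 55.8% of its exon bases. Of the 7 sirtuins, which use NAD, 1 rose and 2 fell, against the same 46.6%, with a list median of -0.098. SIRT7, a nucleolar enzyme, rose from 37.7 ± 4.6 to 53.3 ± 2.8 CPM (SD, n = 5 each, adjusted p = 0.000834 in edgeR). SIRT2 fell by 0.42 and the mitochondrial SIRT4 fell by 0.66 on the log2 scale.

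Partners that carry class IIa proteins to DNA were called about as often as genes in general. Of 8 genes for MEF2 factors and the NCOR1 complex, 7 were tested, 1 rose and 2 fell, against 46.6% of all genes called in either direction, and the list median was -0.11. Without the replicate block or without replicate 4, 0 of them were called lower, and 1 without replicate 1 or 5. MEF2D rose from 59.5 ± 2.1 to 69.99 ± 2.7 CPM (SD, n = 5 each), and the groups did not overlap (log2 fold change 0.23, adjusted p = 0.00252 in edgeR). MEF2A had a log2 fold change of -0.073 (adjusted p = 0.555 in edgeR), which was 0.04 without replicate 3. MEF2B had one of -0.34 (adjusted p = 0.239 in edgeR) with 76.8% of its exon length shared with other genes, and MEF2C, with 49 counts over all samples, was not tested. NCOR1 fell by 0.14 on the log2 scale (adjusted p = 0.0167 in edgeR), a call lost without the replicate block (0.147) and without replicate 1 (0.0506), 4 (0.0743) or 5 (0.0647). TBL1X, a subunit of the same complex, fell by 0.15 (adjusted p = 0.0104 in edgeR), a call lost without the block (0.0614) or replicate 4 (0.0589).

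Among genes for the export of class IIa proteins, kinases were called in both directions. Of 12 kinase genes, 4 rose and 5 fell, with a list median of 0.0021. Of all genes tested 23.9% were called higher and 22.7% lower. Without replicate 4 there were 1 higher and 3 lower, without replicate 1 there were 3 lower, and without replicate 5 there were 2 higher. CAMK2D fell by 0.47 and PRKD1, a protein kinase D, fell by 0.43 on the log2 scale (adjusted p = 0.0019 and 0.00352 in edgeR). Neither gene overlapped between groups, which held for 26.7% of all genes tested. SIK1, a salt-inducible kinase with a near-identical copy in the genome, rose by 0.44 (adjusted p = 0.0131 in edgeR, and 0.0516 without replicate 4). CAMK1 fell by 0.37 (adjusted p = 0.0206 in edgeR, and 0.0552 and 0.0804 without replicate 1 or 4), and opposite-strand exons cover 80.1% of its exon bases. Of the 7 genes for 14-3-3 proteins, which hold phosphorylated class IIa proteins in the cytoplasm, 4 rose and 0 fell, where 23.9% of all genes were called higher, with a list median of 0.22. YWHAB (adjusted p = 0.0524), YWHAG (0.0644) and YWHAE (0.449) did not pass the threshold in edgeR, and 3 of the 7 were called with upper-quartile scaling or library size only. SFN, the epithelial form and a known p53 target, rose from 146.96 ± 15.5 to 220.3 ± 26.9 CPM (SD, n = 5 each, adjusted p = 0.00148 in edgeR). YWHAQ, YWHAZ and YWHAH rose by 0.22, 0.25 and 0.28 on the log2 scale, and the call of YWHAH was lost in 7 alternatives, among them the fits without replicate 1 (adjusted p = 0.128 in edgeR), 3 (0.0851), 4 (0.0868) or 5 (0.0651).

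Subunits of class I assemblies fell more often than they rose. Of 22 genes, 13 fell and 2 rose, with a list median of -0.21, where 22.7% and 23.9% of all genes were called in these directions. CHD3, a nucleosome remodeller of the NuRD complex, fell from 606.7 ± 47.3 to 352.4 ± 21.4 CPM (SD, n = 5 each), or by 0.78 on the log2 scale (adjusted p = 8.15e-05 in edgeR). SAP30 of the SIN3 complex fell by 0.61 and MBD2, which binds methylated DNA within NuRD, fell by 0.51 on the log2 scale. CHD4 fell by 0.35, and other genes on its strand cover 46.9% of its exon bases. Of the 10 acetyltransferases that oppose these enzymes, 7 fell and 0 rose, with a list median of -0.21. KAT2B, also called PCAF, fell from 22.2 ± 1.7 to 15.05 ± 2.3 CPM (SD, n = 5 each, adjusted p = 0.000242 in edgeR). HAT1 fell by 0.35, KAT6B by 0.30 and CREBBP by 0.30 on the log2 scale.

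**Figure D5:**
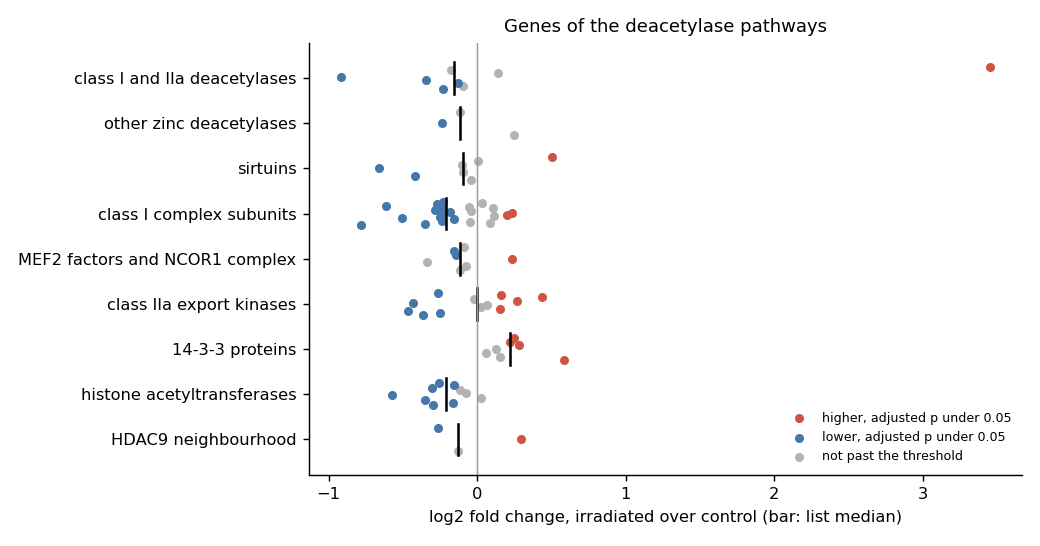
Log2 fold change of irradiated over control samples (horizontal axis) of each tested gene in the deacetylase pathway lists, with genes called higher in red, called lower in blue and not past the threshold in grey. Black bars are list medians. HDAC9 at 3.45 is the point at the far right, and every other gene plotted lies between -1 and 1.

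Of the 8 other protein-coding genes within 1 Mb of HDAC9, 3 reached 200 counts. Of these 1 rose and 1 fell, where 46.6% of all genes tested were called in either direction. SNX13, 146.4 kb away and encoding a sorting nexin, fell from 55.6 ± 4.0 to 46.3 ± 2.5 CPM (SD, n = 5 each), or by 0.26 on the log2 scale (adjusted p = 0.00805 in edgeR). POLR1F, a subunit of RNA polymerase I at 693.0 kb, rose by 0.29 on the log2 scale (adjusted p = 0.00431 in edgeR). AHR, the aryl hydrocarbon receptor at 740.8 kb, had a log2 fold change of -0.13 (adjusted p = 0.337 in edgeR). TWIST1, the transcription factor gene next to HDAC9 at 18.6 kb, had 13 counts over all 10 samples, and the antisense gene HDAC9-AS1 had 2.

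The genes whose pattern was most like that of HDAC9 were sought among 12841 other genes with a mean of at least 1 log2 CPM, by the root-mean-square difference in log2 CPM over the 10 samples after centring each gene on its mean. The 5 nearest were CXCL2 (0.28), BIRC3 (0.29), IRAK2 (0.30), IL32 (0.31) and IL6 (0.32). CXCL2 is a neutrophil chemokine, BIRC3 an inhibitor of cell death, IRAK2 a kinase of interleukin-1 and Toll-like receptor signalling, and IL32 and IL6 are cytokines. IL6 rose from 5.54 ± 1.8 to 50.95 ± 15.2 CPM and IRAK2 from 6.10 ± 1.9 to 48.6 ± 8.3 CPM (SD, n = 5 each). This measure is dominated by the difference between the groups, which these genes share with HDAC9.

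Markers of other cell types were low and, in part, higher in irradiated samples. Summed over 5 endothelial markers, levels were 1.39 to 2.48 CPM in control and 4.17 to 6.11 CPM in irradiated samples, with 2 counts of KDR in all. CDH5 rose from 0.60 ± 0.25 to 3.31 ± 0.94 CPM and PECAM1 from 0.86 ± 0.28 to 1.3997 ± 0.31 CPM (SD, n = 5 each). VWF did not pass the threshold, with a log2 fold change of -0.015 (adjusted p = 0.965 in edgeR). TIE1 had 57 counts over all samples and was not tested. Its mean went down, from 0.097 ± 0.044 to 0.016 ± 0.018 CPM (SD, n = 5 each). Over 6 leukocyte markers summed levels were 0.55 to 0.84 CPM in control and 0.88 to 1.34 CPM in irradiated samples, with 3 counts of CD3E in all. CD14, a monocyte marker, rose from 0.27 ± 0.061 to 0.57 ± 0.11 CPM (SD, n = 5 each, adjusted p = 0.000479 in edgeR), with no overlap between groups. PTPRC, which marks all leukocytes, had a log2 fold change of 0.27 (adjusted p = 0.283 in edgeR). Over 6 fibroblast markers levels were 15.9 to 23.5 and 28.6 to 40.1 CPM, with 2 counts of LUM in all. Both fibroblast markers that reached 200 counts rose, COL1A1 from 18.8 ± 3.3 to 32.2 ± 4.7 CPM and DCN from 0.31 ± 0.20 to 1.75 ± 1.6 CPM (SD, n = 5 each, adjusted p = 0.000108 and 0.000201 in edgeR), and DCN overlapped between groups. PDGFRA, PDGFRB and COL1A2, with 103, 49 and 23 counts over all samples, were not tested. The mean of PDGFRA went up, from 0.080 to 0.14 CPM. Those of PDGFRB and COL1A2 went down, from 0.055 to 0.048 and from 0.025 to 0.018 CPM. The part of other cells in the rise of HDAC9 was not tested. In bulk samples, a change in the number of cells that express HDAC9 and a change in its RNA per cell cannot be told apart.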

How the data were processed

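Polyadenylated RNA from 10 samples was sequenced as paired-end reads. The authors trimmed adapters, aligned the reads to hg38 with STAR, counted them per gene during alignment and deposited raw counts without normalisation. The annotation release and strand setting are not given in the sources used here. Symbols were held for 61369 of 61587 identifiers. Coordinates and exon lengths are from a GENCODE annotation of hg38, and promoter sequences from RefSeq.

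The test was edgeR 4.0.16 in R 4.3.3 (TMM, glmQLFit, glmQLFTest), with replicate number as a block as in the study's model and a minimum of 200 counts over the samples. Both count tools were run on simulated data with 200 changed genes and no effect of replicate number. That setting is simpler than these data, so it does not show how the tools perform on them. Samples were paired by replicate number, as in the labels and the study's model. Deviations from the group means correlated by over 0.1 within each of the 5 numbers (0.217 to 0.508). Samples of different numbers reached up to 0.317 (from -0.354), so these correlations alone cannot establish the pairing. No pair of replicates was close enough to be a repeat of one library (chi-square per gene of at least 7.68). Replicates 4 and 5 were much closer to each other than any other pair, at 13.1 in control and 7.68 in irradiated samples. The next lowest values were 47.9 in control and 35.4 in irradiated samples. Replicates 4 and 5 may thus be less independent than the others, and the reason was not tested.

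The members and lists were chosen with earlier results of these data known. All members are named, with up to 4 called genes of largest change per list, all members of lists of up to 4 genes, the tested neighbours of HDAC9, the MEF2 genes, NCOR1, and the 5 genes most like HDAC9. MEF2C, TWIST1, HDAC9-AS1, YWHAB, YWHAE, YWHAG and the markers that were not called were named after their values were seen. A gene of the co-repressor list is not reported here. Log2 CPM used a prior count of 2. Alternatives were DESeq2 1.42.0, upper-quartile scaling, library size only, a minimum of 1 count, filterByExpr, no replicate block and each replicate left out. Pairs 2, 4 and 5 alone and exon length without shared bases were chosen after seeing the data. Permutation tests used scipy 1.17.1, and figures matplotlib 3.10.9.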

Additional observations from a re-analysis of the deposited data

How the results depend on the processing

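HDAC9 was called higher in all 12 alternative fits, and the count of members called higher was 1 in each. The number of members called lower was 2 without the replicate block, where HDAC3 and HDAC4 were lost, and between 2 and 4 when a replicate was left out (2 without replicate 4 or 5, where HDAC1 and HDAC3 were lost). It was 6 with upper-quartile scaling or library size only and 3 with DESeq2 or a minimum of 1 count. Over the 7 pathway lists, with 3, 7, 7, 12, 7, 22 and 10 genes tested, 12 genes rose and 30 fell. Of all 19006 genes tested 23.9% were called higher and 22.7% lower. With library size only 7 list genes rose, beside 3609 of all genes. Leaving out a replicate gave 8 to 14 rises and 21 to 30 falls in the lists. Over all genes it gave 3557 to 4605 rises and 2943 to 4047 falls. The log2 fold change of HDAC9 was 3.36 to 3.54 when a replicate was left out.

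As a sign-flip test over the 5 replicate pairs, the differences in log2 ratio of HDAC9 to HDAC1 (3.69), HDAC2 (3.55), HDAC3 (3.59), HDAC8 (3.64), HDAC4 (3.80), HDAC5 (4.37) and HDAC7 (3.32) and the difference in class IIa share (5.40 percentage points) each gave an exact p of 0.0625, the smallest that 5 pairs allow, so this replicate block could not reach the threshold. With a replicate left out the exact p was 0.0286, also the smallest possible.

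Directions turned only for genes that were not called. The log2 fold change of HDAC7 was -0.0016 and that of AHR 0.059 with pairs 2, 4 and 5 alone, and that of MEF2A was 0.041 without replicate 3, -0.13 without replicate 2 and 0.071 with these 3 pairs. The cause was not tested. HDAC9 stood at place 6 of the members per length in irradiated samples with the longest transcript as length, in place of 7, and at place 7 with exon bases shared with other genes left out.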
